A study of Mus musculus with 12 samples.

Results

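The genes described are the receptors through which mouse macrophages bind IgG, the chain they share and the first signalling proteins behind them. The 9 members are Fcgr1, Fcgr2b, Fcgr3, Fcgr4, Fcer1g, Syk, Lyn, Inpp5d and Plcg2. They were chosen by name from the 34948 rows of the count table that carry a gene symbol. Earlier results of these data were known when they were chosen. All 9 had 1 row each, and all 9 passed the filter on low counts and were among the 16546 genes tested. The study measured poly(A) RNA of peritoneal macrophages by bulk RNA sequencing, in 4 groups of 3 libraries. R300 KO cells were Mac-Ern1KO macrophages kept for 2 h with platelets that had been coated with R300, which binds the platelet surface protein CD42. Blank KO cells were Mac-Ern1KO macrophages with the treatment given as Con. R300 WT cells and blank WT cells were the same 2 treatments in Ern1fl/fl macrophages, whose Ern1 gene carries loxP sites and is called WT here. All mice were 8 weeks old and, by the labels, male, and all had received 3% Brewer thioglycolate into the peritoneum 3 days before harvest, which draws monocytes and other cells there. The labels name neither the Cre driver of the KO nor the number of mice behind a library, and they do not say whether blank cells met platelets without antibody or no platelets. The title of the series ties Ern1, which encodes the endoplasmic reticulum stress sensor IRE1α, to macrophage phagocytosis in immune thrombocytopenia, a disease in which antibody-coated platelets are removed by macrophages.

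As background, Fcgr1, Fcgr3 and Fcgr4 encode activating IgG receptors that reach the cell surface and signal with the gamma chain encoded by Fcer1g. When coated particles cluster these receptors, Src family kinases such as Lyn phosphorylate the chain's tyrosine motif (the ITAM), the kinase Syk docks on it, and phospholipase Plcg2 and other effectors start calcium release, actin remodelling and uptake. Fcgr2b encodes the inhibitory receptor of the family, whose own tyrosine motif recruits SHIP1, the lipid phosphatase encoded by Inpp5d. The balance of activating to inhibitory receptors is known to set how readily a macrophage takes up IgG-coated platelets.

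Several facts about the libraries bear on the values. Totals on rows with a symbol ran from 21759259 counts (blank WT 1) to 44263362 counts (blank KO 2), so each member rested on at least 385 counts in every library. Levels are given as TMM-normalised CPM, counts scaled to a common library total and corrected for composition. Ern1 itself had 235, 225 and 174 CPM in R300 KO libraries, 150, 155 and 116 CPM in blank KO libraries, 204, 138 and 205 CPM in R300 WT libraries and 113, 117 and 94.1 CPM in blank WT libraries. It was thus not lower in KO libraries. The count sums all exons of Ern1, and which exons are deleted is not given in the sources used here, so this count does not check the labels. Macrophage markers were high in all 12 libraries (Csf1r 1496 to 2270 CPM, Adgre1 566 to 706 CPM). Against the male sex in the labels, Xist reached 143 to 590 CPM in 8 libraries. It is a transcript of the inactive X chromosome of female cells. In 4 libraries, 1 in each group (R300 KO 3, blank KO 3, R300 WT 2 and blank WT 3), Xist was at most 0.0742 CPM. Among libraries with Xist it was 464 to 590 CPM in KO. It was 143 CPM in R300 WT 1, 169 in R300 WT 3, 148 in blank WT 1 and 431 in blank WT 2. Summed CPM of the Y-chromosome genes Ddx3y, Uty, Kdm5d and Eif2s3y was 42.6 to 71.6 in those KO libraries. In those WT libraries it was 162, 150, 149 and 69.5, in the same order. Without Xist it was 205 to 224 CPM. R300 WT 1, R300 WT 3 and blank WT 1 thus had less Xist and a higher Y-chromosome sum than the KO libraries with Xist. Blank WT 2 instead lay near blank KO 2, which had 464 CPM of Xist and a sum of 71.6 CPM. The part of these levels in KO against WT was not tested. Libraries R300 KO 1 and 2, and libraries R300 WT 1 and 3, were far more alike than other pairs of a group (median chi-square per gene 1.70 and 1.48, against 8.92 to 17.8). Results are therefore also given within the 2 sets of libraries and with each of these 2 pairs summed.

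Of the 9 genes, 4 lie within a short stretch of mouse chromosome 1 (GENCODE M21 annotation, GRCm38, the assembly that mm10 names). Fcgr2b lies on the minus strand at chr1:170958617-170976547, Fcgr4 on the plus strand at chr1:171018920-171029761, Fcgr3 on the minus strand at chr1:171051174-171064935 and Fcer1g on the minus strand at chr1:171229572-171234365. Inpp5d is on the same chromosome at chr1:87620312-87720507 (plus strand). The others are at chr3:96282909-96293969 (Fcgr1, minus strand), chr4:3678115-3813122 (Lyn, plus strand), chr8:117498291-117635142 (Plcg2, plus strand) and chr13:52583173-52648792 (Syk, plus strand).

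Fcgr2b and Fcgr3 are near-copies of each other over the part that encodes an extracellular immunoglobulin domain, which limits how reads can be divided between an inhibitory and an activating receptor. The fourth annotated exon of each (chr1:170966446-170966700 in Fcgr2b and chr1:171053939-171054193 in Fcgr3, both coding over their whole length) is shown 5′ to 3′ on the gene's strand, with the bases that differ in capitals.
Fcgr2b, exon 4: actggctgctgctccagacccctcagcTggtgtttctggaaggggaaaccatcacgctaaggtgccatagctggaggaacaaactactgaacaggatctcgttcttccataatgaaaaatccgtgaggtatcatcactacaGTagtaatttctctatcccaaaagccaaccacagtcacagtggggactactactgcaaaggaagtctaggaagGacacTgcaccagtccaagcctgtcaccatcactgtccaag
Fcgr3, exon 4: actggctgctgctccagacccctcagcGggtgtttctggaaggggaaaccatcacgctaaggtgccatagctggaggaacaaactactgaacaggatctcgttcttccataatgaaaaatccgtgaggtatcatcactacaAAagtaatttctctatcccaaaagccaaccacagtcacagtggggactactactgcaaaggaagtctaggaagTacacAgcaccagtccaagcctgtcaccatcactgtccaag
The 2 exons are identical at 250 of 255 bases (98.0%), with a longest run of 113 identical bases. Over whole transcripts, 2.54% of the distinct 100-base stretches of Fcgr3 also occurred in Fcgr2b and in no other gene, and 4.30% of those of Fcgr2b occurred in some other gene. With 50-base stretches the share of Fcgr3 was 9.58%. How reads that match both genes were counted is not given in the sources used here, so a small part of either count is uncertain. Lyn shared 11.6% of its 100-base stretches with Gm11787 and Gm26857, but Gm11787 held only 9 to 198 counts per library, 0.183% to 1.94% of the count of Lyn. Annotated exons on the opposite strand overlapped 6.09% of the exonic bases of Lyn and 2.68% of those of Fcgr2b, and the kit does not mark strand.

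Levels between genes can be compared per length, as CPM per kilobase of the longest coding transcript over the 12 libraries. The gamma chain Fcer1g was highest by this measure, at a mean of 501 CPM per kilobase (range 443 to 570). The activating receptor Fcgr3 followed at 237 CPM per kilobase (161 to 331), Syk at 135 (110 to 185) and the inhibitory Fcgr2b at 112 (86.1 to 156). Lyn had 72.0 CPM per kilobase (47.5 to 102), Inpp5d 43.5 (32.1 to 54.7) and Plcg2 32.3 (25.1 to 40.0). Fcgr4 and the high-affinity receptor Fcgr1 were lowest, at 20.1 (9.17 to 24.4) and 18.7 (10.9 to 25.9) CPM per kilobase. The ranges of Fcer1g and Fcgr3 did not overlap, nor did those of Plcg2 and Fcgr4, whereas every other pair of neighbours in this order overlapped. With all annotated exonic bases as the length, Plcg2 stood above Inpp5d.

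**Figure D1:**
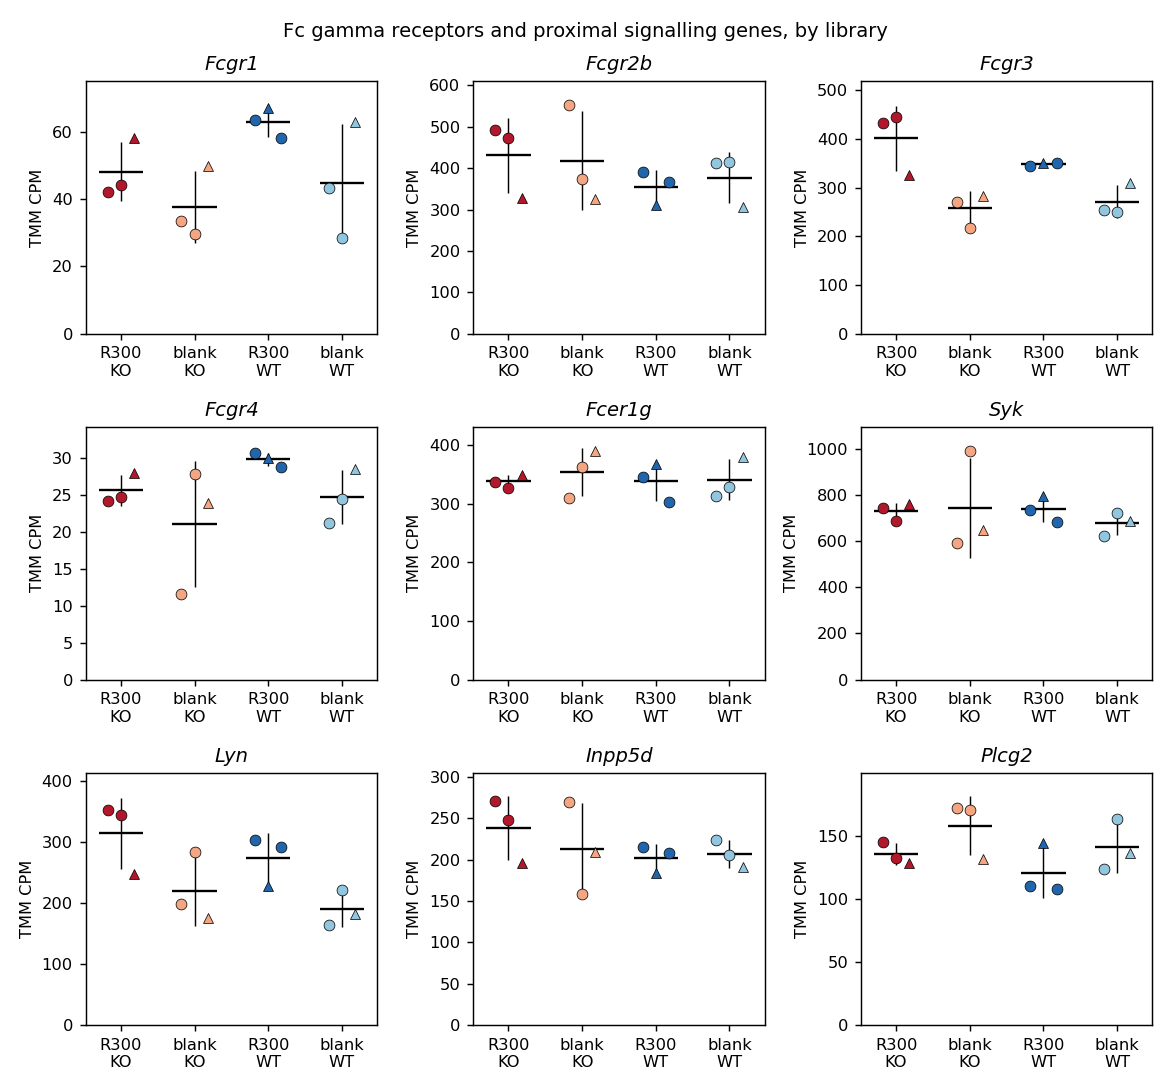
TMM-normalised CPM of the 9 genes (y axis, from 0) in R300 KO, blank KO, R300 WT and blank WT libraries (x axis). Each symbol is a library, triangles being the 4 libraries without Xist and circles the 8 with it, horizontal lines are group means and vertical lines are SDs (n = 3). For Fcgr3 the 6 R300 libraries (325 to 446 CPM) lie above the 6 blank libraries (217 to 310.5 CPM); for every other gene the 2 treatments overlap.

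Contact with R300-opsonized platelets was compared with blank over both genotypes (the mean of the KO and the WT difference), which asks what the macrophages' own IgG receptor system did at the RNA level after 2 h. Fcgr3 rose 1.42-fold and was the only member of 9 called, that is, with an adjusted p under 0.05 in edgeR's quasi-likelihood test with Benjamini-Hochberg adjustment over all 16546 genes. By that rule 3.64% of all genes tested were called, and 2.43% of all genes tested were called higher. A single call among 9 genes is too few to be set against these shares. An unadjusted p under 0.05 was reached by 3 members (Fcgr3, Lyn and Fcgr1), as by 15.6% of all genes. The values of Lyn and Fcgr1 were also above 0 but did not pass, and the gamma chain, Syk, Fcgr2b and Inpp5d had log2 fold changes between -0.04 and 0.07. The median log2 fold change of the 9 members was 0.07, against -0.00 over all genes tested. In a bulk library a change in the number of cells that express a gene and a change in RNA per cell cannot be told apart.

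Fcgr3, the low-affinity activating IgG receptor, had 434, 446 and 325 CPM in R300 KO libraries, against 271, 217 and 283 CPM in blank KO libraries. In WT cells it had 344, 352 and 351 CPM in R300 libraries, against 254, 249.6 and 310.5 CPM in blank libraries. Every R300 library was thus above every blank library, in each genotype and across them. Across both genotypes 4.01% of genes had 6 R300 libraries that did not overlap the 6 blank ones, and Fcgr3 was the only member among them. Its log2 fold change was 0.50 (SE 0.10, adjusted p = 0.0222, edgeR), a fold of 1.42 with a 95% interval of 1.21 to 1.66. Within KO cells alone the fold was 1.56 (log2 0.64, SE 0.15, adjusted p = 0.0864, edgeR), and within WT cells 1.29 (log2 0.36, SE 0.15, adjusted p = 0.494, edgeR), and neither passed.

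The call of Fcgr3 depended on single libraries. It held in 6 of the 12 fits with 1 library left out (adjusted p = 0.00788 to 0.0473, edgeR) and was lost in the other 6, without R300 KO 1, R300 KO 2, R300 WT 1, R300 WT 3, blank WT 1 or blank WT 2 (0.0563 to 0.0766). With the 2 near-alike pairs summed it was lost at an adjusted p of 0.171, while the log2 fold change stayed at 0.47. Within the 8 libraries with Xist the fold was 1.58, and within the 4 without Xist 1.14, so R300 was higher in both sets. Mast cells also carry Fcgr3, and the summed level of 10 mast cell and basophil markers was likewise higher with R300 in each genotype: 53.9 to 98.4 CPM in R300 KO libraries against 22.2 to 49.2 CPM in blank KO libraries, and 42.6 to 62.2 CPM in R300 WT libraries against 15.3 to 24.7 CPM in blank WT libraries. Within groups this sum and Fcgr3 did not always rank alike. Blank KO 2 and blank WT 2 had the highest sum and the lowest Fcgr3 of their groups, while R300 KO 3 had the lowest of both. All 9 markers tested were above 0, and Gata2, Mcpt4 and Tpsb2 were called by edgeR, against 7 called by DESeq2. The call of Gata2 was lost in 0 of 20 alternatives, that of Tpsb2 in 8 and that of Mcpt4 in 14 (11 of them fits with 1 library left out). Fcer1a and Ms4a2, subunits of the IgE receptor that mast cells use, stayed at or below 0.483 CPM in all libraries. Dendritic cell markers were summed over 8 genes, and the sum was 43.7 to 60.5 CPM in R300 KO libraries against 25.9 to 39.5 CPM in blank KO libraries, and 48.3 to 62.8 CPM in R300 WT libraries against 21.9 to 36.2 CPM in blank WT libraries. Of these 8 markers 4 were above 0, Ccr7 was called higher (log2 1.60, SE 0.21, adjusted p = 0.00213, edgeR), and Clec9a, Xcr1 and Cd209a were at or below 2.54 CPM in every library. Ccr7 alone ran from 9.91 to 47.3 CPM over the libraries, and the next highest of these markers, Zbtb46, reached 7.75 CPM. Among 10 macrophage markers 5 were above 0 and Cd14 was called higher (log2 1.49, SE 0.32, adjusted p = 0.0261, edgeR; lost in 10 of 20 alternatives), with a sum of 13199 to 15506 CPM in R300 KO libraries against 11695 to 12887 CPM in blank KO libraries, and 19159 to 19863 CPM in R300 WT libraries against 17965 to 19784 CPM in blank WT libraries. Lyz2 was the largest part of this sum in every library (6058 to 13522 CPM) and was lower in KO libraries. Among 8 markers of recruited monocytes 7 were below 0 and Cx3cr1 was called lower (log2 -1.50, SE 0.30, adjusted p = 0.0203, edgeR; lost in 6 of 20 alternatives), while their sum overlapped between treatments in both genotypes. Nearly all of the monocyte sum was Fn1 (7852 to 28640 CPM), so it says little about the other markers. The part of other cell types, mast cells among them, in the Fcgr3 result was not tested.

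The promoter windows of Fcgr3 and Fcgr1 are shown because PU.1, the myeloid factor known to bind GAGGAA cores, and STAT factors, known to bind TTCNNNGAA elements, are textbook regulators of Fc receptor genes. Both windows run from 250 bases before to 50 bases after the annotated start and are given 5′ to 3′ on the gene's strand, from RefSeq on GRCm38.p6, at chr1:171059354-171059653 for Fcgr3 and chr3:96293920-96294219 for Fcgr1 (both minus strand). Capitals mark each GAGGAA match, here on the opposite strand as TTCCTC, and in Fcgr1 also the TTCNNNGAA match, which lies apart from it.
Fcgr3, promoter: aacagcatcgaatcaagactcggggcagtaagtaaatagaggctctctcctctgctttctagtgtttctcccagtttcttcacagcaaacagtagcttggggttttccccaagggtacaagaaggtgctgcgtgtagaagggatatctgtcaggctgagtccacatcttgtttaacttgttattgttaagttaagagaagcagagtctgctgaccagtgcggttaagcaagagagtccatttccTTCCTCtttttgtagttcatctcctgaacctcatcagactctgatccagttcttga
Fcgr1, promoter: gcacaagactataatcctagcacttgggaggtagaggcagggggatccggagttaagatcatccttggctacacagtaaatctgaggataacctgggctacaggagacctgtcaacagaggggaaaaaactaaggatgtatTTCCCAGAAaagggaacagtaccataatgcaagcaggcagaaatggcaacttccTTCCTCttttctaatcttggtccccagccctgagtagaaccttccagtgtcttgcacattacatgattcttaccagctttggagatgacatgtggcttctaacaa
Windows were found for 8 of the 9 members, and Lyn was the other. GAGGAA, searched on both strands, occurred once each in the windows of Fcgr1, Fcgr3 and Fcgr4, at 2 places in that of Inpp5d and in 1 of 2 windows of Syk. It did not occur in the windows of Fcgr2b, Fcer1g and Plcg2. The same letters occurred in 28.3% of 32851 windows of all genes, and TTCNNNGAA, found here only in Fcgr1, in 8.3% of them. These matches are letters in a window and were not tested against the expression values.

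Lyn, the Src family kinase that phosphorylates both activating and inhibitory receptor tails, had 352, 343 and 247 CPM in R300 KO libraries, against 198, 284 and 176 CPM in blank KO libraries. In WT cells it had 304, 228 and 291 CPM in R300 libraries, against 165, 221 and 183 CPM in blank libraries. The WT groups did not overlap, as was so for 12.8% of genes, while in KO cells the library blank KO 2 reached into the R300 range. The mean difference was 1.44-fold (log2 0.53, SE 0.14, adjusted p = 0.0787, edgeR) and did not pass. It was almost the same in KO cells (log2 0.52, SE 0.20) as in WT cells (log2 0.53, SE 0.21), with adjusted p of 0.451 and 0.455 (edgeR). The fold was 1.51 within libraries with Xist and 1.32 within those without. Lyn passed without R300 KO 3 (adjusted p = 0.0460, edgeR) or without blank KO 2 (0.0267), with a term for the 2 Xist sets (0.0131), and with DESeq2 (0.0215). In the other 16 of 20 alternatives it did not pass (adjusted p up to 0.413, edgeR).

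Fgr, another Src family kinase of macrophages that acts on the same receptors, differed in the other direction. It had 232, 220.5 and 226 CPM in R300 KO libraries against 336, 318 and 266 CPM in blank KO libraries, and 219, 239 and 211 CPM in R300 WT libraries against 309.8, 350.4 and 270.0 CPM in blank WT libraries. Counts of Lyn over counts of Fgr in the same library were 1.51, 1.56 and 1.09 in R300 KO libraries, against 0.591, 0.892 and 0.662 in blank KO libraries. The same ratio was 1.39, 0.954 and 1.38 in R300 WT libraries, against 0.531, 0.632 and 0.677 in blank WT libraries. All 6 R300 libraries were above all 6 blank libraries, and within R300 the libraries without Xist, KO 3 and WT 2, had the lowest ratios. This ratio was chosen after the values were seen and was not tested.

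**Figure D2:**
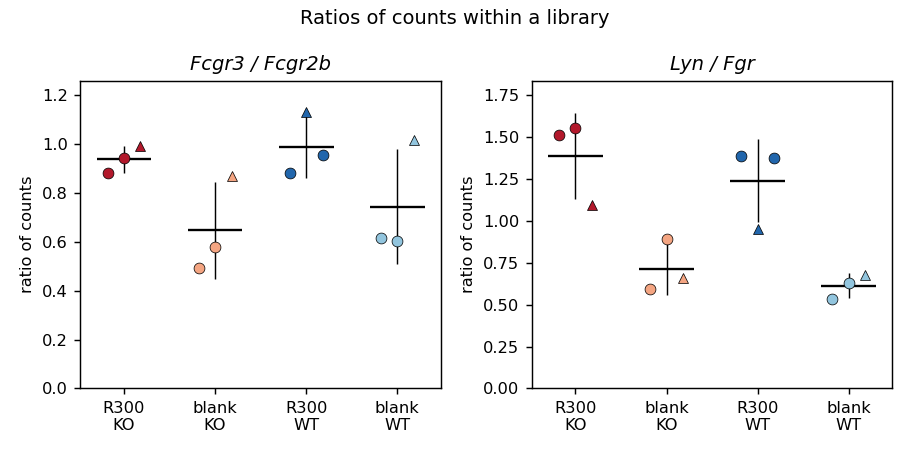
Ratios of counts of 2 genes within a library (y axis, from 0) for Fcgr3 over Fcgr2b and Lyn over Fgr, by group (x axis). Each symbol is a library, triangles being those without Xist, horizontal lines are group means and vertical lines are SDs (n = 3). The ratio of Lyn to Fgr does not overlap between R300 and blank, while Fcgr3 over Fcgr2b reaches 0.869 in blank KO and 1.02 in blank WT libraries without Xist.

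Fcgr1 encodes the high-affinity receptor, which binds single IgG molecules. It had 42.1, 44.1 and 58.0 CPM in R300 KO libraries, against 33.5, 29.5 and 49.8 CPM in blank KO libraries. In WT cells it had 63.5, 67.1 and 58.2 CPM in R300 libraries, against 43.1, 28.3 and 62.8 CPM in blank libraries. In each group the library without Xist had the highest value, and the blank values of those libraries overlapped the R300 range. The mean difference with R300 was 1.34-fold (log2 0.42, SE 0.19, adjusted p = 0.314, edgeR) and did not pass. It was 1.55-fold within libraries with Xist and 1.12-fold within those without. With a term for the 2 sets the adjusted p was 0.0361, and in libraries with Xist alone 0.0452 (edgeR). In the other 18 of 20 alternatives Fcgr1 did not pass.

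Fcgr4 encodes the activating receptor for IgG2 subclasses. It had 24.1, 24.6 and 28.0 CPM in R300 KO libraries and 11.5, 27.8 and 23.9 CPM in blank KO libraries, where blank KO 1 stood far below the rest. In WT cells it had 30.6, 29.9 and 28.8 CPM in R300 libraries, against 21.2, 24.4 and 28.5 CPM in blank libraries, without overlap, as for 12.8% of genes. The mean difference was 1.21-fold (log2 0.27, SE 0.18, adjusted p = 0.517, edgeR).

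Fcgr2b, the inhibitory receptor, had no detectable difference between treatments. It had 492, 473 and 328 CPM in R300 KO libraries against 552, 374 and 326 CPM in blank KO libraries, and 390, 311 and 367 CPM in R300 WT libraries against 413, 414 and 305 CPM in blank WT libraries. The treatments overlapped throughout, and the library without Xist was the lowest of its group in all 4 groups. The log2 fold change with R300 was -0.02 (SE 0.15), a fold of 0.986 with a 95% interval of 0.779 to 1.25. Its adjusted p was 0.975 (edgeR). Counts of Fcgr3 over counts of Fcgr2b were 0.881, 0.943 and 0.993 in R300 KO libraries, against 0.491, 0.581 and 0.869 in blank KO libraries. In WT cells the same ratio was 0.883, 1.13 and 0.958 in R300 libraries, against 0.614, 0.603 and 1.02 in blank libraries. KO libraries did not overlap between treatments, by a narrow margin (0.881 against 0.869), while blank WT 3 lay within the R300 WT range. This ratio of Fcgr3 to Fcgr2b was not tested. B cells also carry Fcgr2b, and the sum of 10 B cell markers was 115 to 138 CPM in R300 KO libraries, 151 to 294 CPM in blank KO libraries, 88.5 to 107 CPM in R300 WT libraries and 90.8 to 320 CPM in blank WT libraries. All 10 were below 0 with R300, and 0 were called by edgeR and 3 by DESeq2. An unadjusted p under 0.05 was reached by 5, against 15.6% of all genes. The part of B cells in the Fcgr2b values was not tested.

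Fcer1g, whose gamma chain the activating receptors need, had the narrowest interval of the 9 members. It had 337, 327 and 349 CPM in R300 KO libraries and 309, 362 and 389 CPM in blank KO libraries. In WT cells it had 345, 367 and 302 CPM in R300 libraries and 313, 328 and 380 CPM in blank libraries. The log2 fold change was -0.04 (SE 0.08), with a 95% interval of 0.858 to 1.11 for the fold (adjusted p = 0.888, edgeR). In each group the library without Xist had the highest value. Platelets carry the gamma chain as well, and the sum of the platelet markers was 67.7 to 124 CPM in R300 KO libraries, 63.2 to 104 CPM in blank KO libraries, 51.8 to 102 CPM in R300 WT libraries and 51.6 to 88.3 CPM in blank WT libraries. Most of it was Pf4, and Gp5, Gp6 and Gp9 were at or below 0.485 CPM in every library.

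Syk, Inpp5d and Plcg2, the downstream kinase, the phosphatase and the phospholipase, were not called between treatments. Syk had 742, 689 and 760 CPM in R300 KO libraries against 591, 991 and 647 CPM in blank KO libraries, and 734, 797 and 685 CPM in R300 WT libraries against 624, 721 and 686 CPM in blank WT libraries. The single high value, blank KO 2, exceeded all R300 libraries. The log2 fold change of Syk was 0.05 (SE 0.12), with a 95% interval of 0.861 to 1.25 for the fold (adjusted p = 0.901, edgeR). Inpp5d had 270, 248 and 196 CPM in R300 KO libraries against 270, 158 and 209 CPM in blank KO libraries, and 216, 183 and 208 CPM in R300 WT libraries against 224, 206 and 191 CPM in blank WT libraries. Its log2 fold change was 0.07 (SE 0.13), with a 95% interval of 0.861 to 1.27 for the fold (adjusted p = 0.870, edgeR). Plcg2 had the most negative difference of the 9 members. It had 145, 132 and 128 CPM in R300 KO libraries against 172, 170 and 131 CPM in blank KO libraries, and 110, 144 and 108 CPM in R300 WT libraries against 124, 163 and 136 CPM in blank WT libraries. The log2 fold change of Plcg2 was -0.22 (SE 0.11, adjusted p = 0.351, edgeR), and the fold was 0.787 within libraries with Xist and 1.02 within those without.

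Within each genotype taken alone, 0 of the 9 members passed. In KO cells 0.834% of genes were called between R300 and blank, 2 members had an unadjusted p under 0.05 (Fcgr3 and Lyn), as had 8.78% of genes, and the groups of 1 member, Fcgr3, did not overlap, as was so for 12.3% of genes. DESeq2 called Fcgr3 there (adjusted p = 0.00501), as did edgeR with a term for the Xist sets (0.0416), in libraries with Xist alone (0.0239) and without R300 KO 3 (0.0305). The other 17 of 21 alternatives did not call it (adjusted p up to 0.584, edgeR). In WT cells 0.623% of genes were called, the same 2 members had an unadjusted p under 0.05, as had 8.72% of genes, DESeq2 called 0 members, and Fcgr3, Fcgr4 and Lyn did not overlap, as was so for 12.8% of genes. Fcgr1 had a log2 fold change of 0.36 (SE 0.27) in KO cells and 0.49 (SE 0.27) in WT cells.

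**Figure D3:**
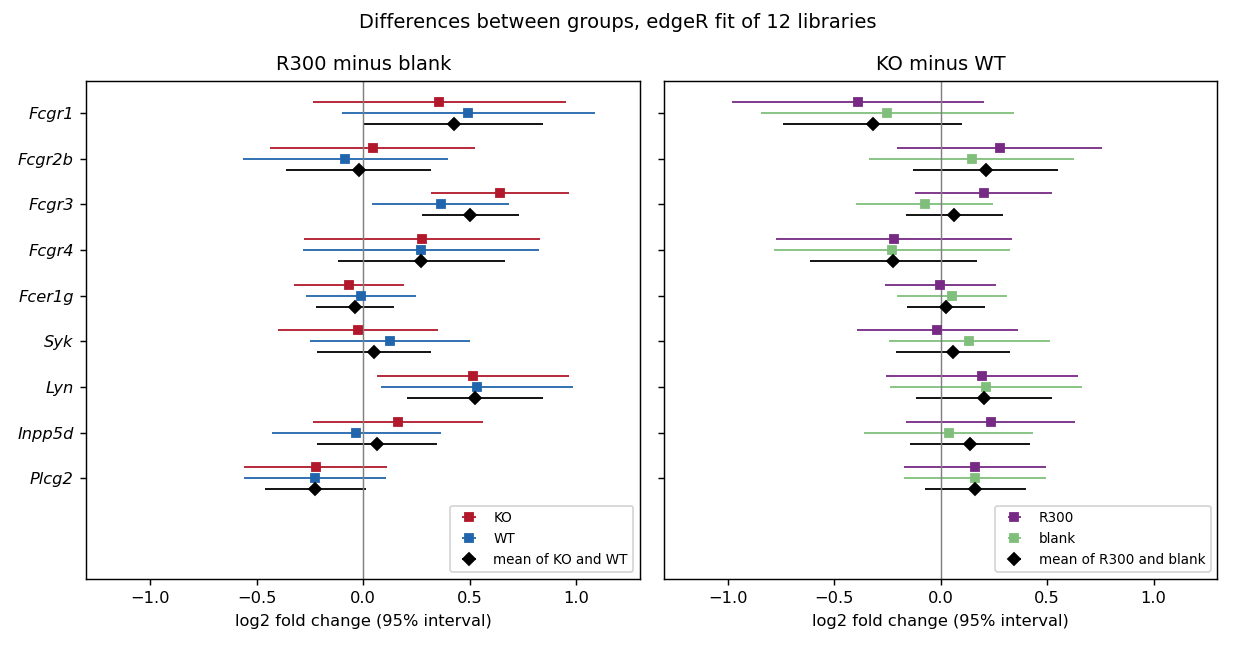
Log2 fold changes with 95% intervals (x axis) of the 9 genes (rows), R300 minus blank on the left and KO minus WT on the right. Squares give the difference within 1 genotype or 1 treatment and diamonds the mean of both, all from the edgeR fit of 12 libraries. On the left the mean intervals of Fcgr3 (log2 0.50), Lyn (0.53) and Fcgr1 (0.42) lie above 0; on the right every interval spans 0.

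Mac-Ern1KO cells were compared with Ern1fl/fl cells over both treatments (the mean of the R300 and the blank difference). 0 of 9 members were called, and 0 had an unadjusted p under 0.05 (2.8% of genes did), in edgeR's quasi-likelihood test. DESeq2 also called 0 members. In this comparison 0.00604% of genes, which is the single gene Lyz2, were called. Lyz2, the macrophage lysozyme gene, had 6058 to 7317 CPM in KO libraries against 12183 to 13522 CPM in WT libraries. Its call was lost in 2 of 20 alternatives, in libraries with Xist alone (adjusted p = 0.199, edgeR) and with the near-alike pairs summed (0.288). Among the members Fcgr1 lay furthest from 0, at 0.801-fold (log2 -0.32, SE 0.19, 95% interval 0.599 to 1.07 for the fold). The other differences (KO minus WT) were -0.22 (SE 0.18) for Fcgr4, 0.21 (SE 0.15) for Fcgr2b, 0.20 (SE 0.14) for Lyn and 0.16 (SE 0.11) for Plcg2. They were 0.14 (SE 0.13) for Inpp5d, 0.06 (SE 0.10) for Fcgr3, 0.06 (SE 0.12) for Syk and 0.03 (SE 0.08) for Fcer1g. All adjusted p were 1.00 after rounding. The groups of 0 members did not overlap here, against 0.242% of genes. The 95% interval for the fold ran from 0.893 to 1.22 for Fcgr3 and from 0.897 to 1.16 for Fcer1g.

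Among R300 libraries alone, KO cells had the lower values of Fcgr1 and Fcgr4 throughout. Fcgr1 had 42.1 to 58.0 CPM in R300 KO libraries against 58.2 to 67.1 CPM in R300 WT libraries (log2 -0.39, SE 0.27), and Fcgr4 had 24.1 to 28.0 CPM against 28.8 to 30.6 CPM (log2 -0.22, SE 0.25). The groups of these 2 members did not overlap, as was so for 7.91% of all genes (3.87% lower in KO), and 0 members and 0% of genes were called there by edgeR (adjusted p = 1.00 for both members). DESeq2 also called 0 members, and 0 members had an unadjusted p under 0.05, against 1.96% of genes. Fcgr1 is known as an interferon-inducible gene. A list of 22 interferon-response genes had all 22 values below 0 in KO against WT over both treatments. The median log2 difference was -0.88, beside -0.00 for all genes. Of the 22, 0 were called by edgeR and 4 by DESeq2, and 17 had an unadjusted p under 0.05, against 2.8% of all genes. The summed level of the 22 genes was 402 to 872 CPM in R300 KO libraries and 494 to 964 CPM in blank KO libraries. It was 818 to 1550 CPM in R300 WT libraries and 945 to 1706 CPM in blank WT libraries. The highest library of R300 KO, of R300 WT and of blank WT was the one without Xist. In blank KO that library had 867 CPM, below 964 CPM in blank KO 2. The relation of this sum to Fcgr1 and to the Xist sets was not tested. In blank libraries alone 0 members and 0% of genes were called between KO and WT, 0 members had an unadjusted p under 0.05 (1.09% of genes did), DESeq2 called 0 members, and the groups of 0 members did not overlap, against 3.7% of genes.

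The difference between the responses of KO and WT cells was tested as an interaction term, and 0 members and 0% of genes were called by edgeR, as were 0 by DESeq2. An unadjusted p under 0.05 was reached by 0 members and by 0.574% of genes. Fcgr3 responded with log2 0.64 in KO cells and 0.36 in WT cells, a difference of 0.28 (SE 0.21) with a 95% interval from -0.18 to 0.73 (adjusted p = 1.00, edgeR). The differences were -0.02 (SE 0.29) for Lyn and -0.14 (SE 0.38) for Fcgr1. A p that misses the threshold here does not show that the genotypes respond alike. In 20 alternative fits the number of genes called for the interaction stayed at 0.

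The rest of the pathway was read from 5 lists of genes. Of 31 activating signalling genes behind the receptors, 25 had values below 0 with R300 over both genotypes (median log2 -0.19, against -0.00 over all genes tested). An unadjusted p under 0.05 was reached by 9 of them, against 15.6% of all genes. DESeq2 called 0 higher and 5 lower, against 711 higher and 511 lower of all 16546 genes. By edgeR 0 were called higher and 3 lower, against 402 higher and 201 lower of the 16546. The 3 were Fgr (log2 -0.46, SE 0.08, adjusted p = 0.0125), Pik3cg (-0.61, SE 0.14, 0.0378) and Vav1 (-0.60, SE 0.14, 0.0401), all by edgeR. Vav1 activates Rac GTPases at the forming phagosome, and Pik3cg is a catalytic subunit of PI 3-kinase. Within the libraries with Xist the folds of Fgr, Vav1 and Pik3cg were 0.673, 0.570 and 0.586, and within those without Xist they were 0.868, 0.824 and 0.862. The call of Fgr was lost in 1 of 20 alternatives, that of Pik3cg in 9 and that of Vav1 in 11.

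Among 30 inhibitory signalling genes tested of 31, 0 rose and 1 fell with R300 by edgeR, and 23 values were below 0 (median log2 -0.32). An unadjusted p under 0.05 was reached by 14 of the 30, against 15.6% of all genes. DESeq2 called 0 higher and 5 lower. Inppl1, which encodes SHIP2, the relative of Inpp5d, fell to 0.784 of blank (log2 -0.35, SE 0.08, adjusted p = 0.0347, edgeR), and 8 of 20 alternatives lost the call. Inpp5d itself had no such difference, as given above. Sla, an adaptor that dampens antigen receptor signalling in lymphocytes, was next by p (log2 -0.81, SE 0.22, adjusted p = 0.0783, edgeR) and did not pass.

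Of the 24 tested of 26 other receptors that signal through ITAM chains or ITAM-like tails, 1 rose and 1 fell by edgeR (median log2 -0.01). DESeq2 called 2 higher and 1 lower. An unadjusted p under 0.05 was reached by 7 of the 24, against 15.6% of all genes. Clec7a, which encodes the glucan receptor Dectin-1 that uses Syk, rose 2.27-fold (log2 1.18, SE 0.14, adjusted p = 0.000868, edgeR), with a fold of 2.71 within libraries with Xist and 1.59 within those without. It passed within KO cells (log2 1.29, SE 0.19, adjusted p = 0.0112, edgeR) and within WT cells (log2 1.07, SE 0.19, adjusted p = 0.0351, edgeR), with the call lost in 5 and in 11 of 21 alternatives. Clec5a, a receptor that pairs with DAP12, fell to 0.576 of blank (log2 -0.80, SE 0.16, adjusted p = 0.0209, edgeR), and 6 of 20 alternatives lost it. The fold of Clec5a was 0.473 within libraries with Xist and 0.864 within those without.

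Of 56 phagocytic cup and actin genes, 8 had an unadjusted p under 0.05, against 15.6% of all genes (median log2 -0.05). DESeq2 called 1 higher and 3 lower. By edgeR 1 rose and 0 fell. It was Arpc3, a subunit of the Arp2/3 complex that branches actin, at 1.44-fold (log2 0.53, SE 0.09, adjusted p = 0.00903, edgeR), lost only with the near-alike pairs summed (0.0760). Vasp, which extends actin filaments, was next by p (log2 -0.54, SE 0.16, adjusted p = 0.0982, edgeR). Of 9 other antibody receptors tested of 13, 0 were called by edgeR and 3 by DESeq2, all lower (median log2 -0.65). An unadjusted p under 0.05 was reached by 3, against 15.6% of all genes. The lowest p were those of Fcer2a, the low-affinity IgE receptor of B cells, and of Trim21, the cytosolic antibody receptor. Fcer2a (log2 -1.56, SE 0.42, adjusted p = 0.0718, edgeR) had 0.303 CPM in R300 libraries and 0.826 CPM in blank libraries. Trim21 did not pass either (log2 -0.49, SE 0.15, adjusted p = 0.118, edgeR). Between KO and WT over both treatments 0 of the 150 genes tested in the 5 lists were called by edgeR. An unadjusted p under 0.05 was reached by 7 of the 150, against 2.8% of all genes. DESeq2 called 1, B2m, against 50 of all 16546 genes. The lowest p there belonged to B2m, which pairs with the neonatal Fc receptor and with MHC class I (log2 -0.45, SE 0.08, adjusted p = 0.243, edgeR), and to Pld1, a phospholipase D (log2 0.42, SE 0.12, adjusted p = 0.928, edgeR). Values of Trim21 (-0.37, SE 0.15), Prkce (0.36, SE 0.14), Src (-0.30, SE 0.14), Sla (0.37, SE 0.22) and Dok3 (0.20, SE 0.11) had adjusted p of 1.00, as had Clec4n (0.51, SE 0.44), Dock1 (0.20, SE 0.07) and Cd300ld (0.15, SE 0.07).

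**Figure D4:**
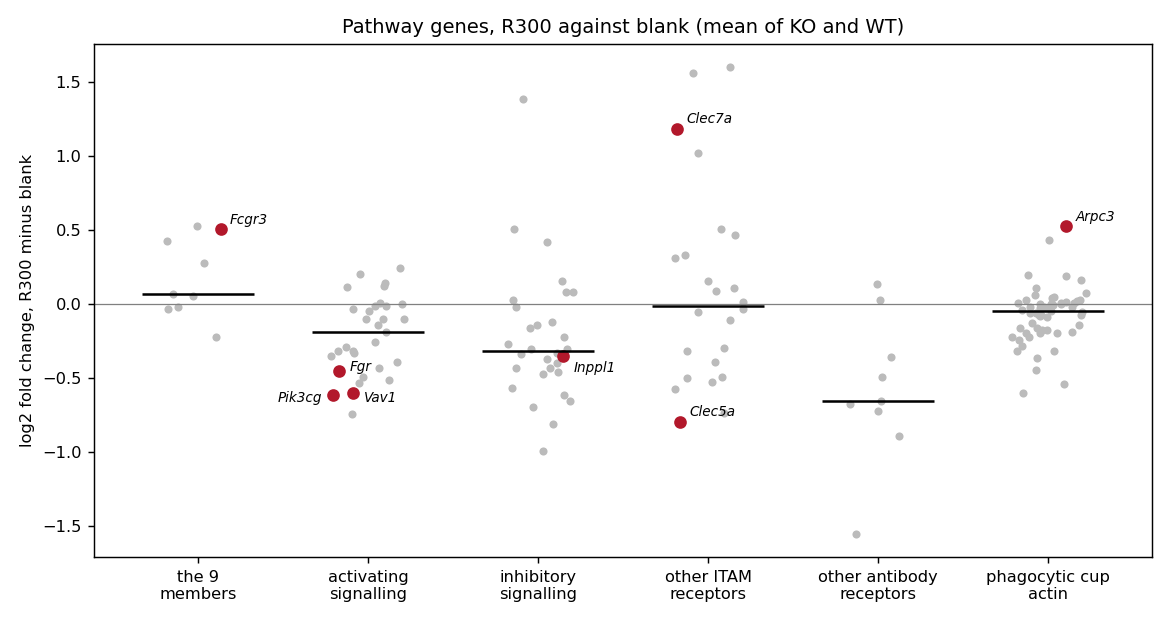
Log2 fold change, R300 minus blank over both genotypes (y axis), of the 9 members and of 5 lists of pathway genes (x axis). Each point is a gene, red and named where called by edgeR (adjusted p under 0.05), and horizontal lines are medians. Activating signalling genes lie mostly below 0 (25 of 31), with Fgr, Vav1 and Pik3cg called, while Fcgr3, Clec7a and Arpc3 are called above 0.

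The members did not vary as a block across the 12 libraries. As a description over libraries that share groups and composition, Pearson's r of log2(CPM + 1) was highest for Fcgr2b with Inpp5d (0.80), the receptor and the phosphatase it recruits, and lowest for Fcgr1 with Plcg2 (-0.74). Fcgr3 and Lyn gave 0.62, Fcgr2b with Fcgr4 -0.71 and with Fcer1g -0.69, and Fcer1g with Fcgr3 -0.09. Among 10089 genes searched, the pattern most like that of Fcgr2b was that of Lpcat2 (r = 0.99), then Hp and Pygl (0.98 each). Those most like Fcgr3 were Grina (0.96), Clec7a and Chmp5 (0.95 each), and those most like Lyn were Il1b, Lmbrd1 (0.98 each) and Tnfsf14 (0.97). Dapk1 (0.99), Adam10 (0.97) and Atrnl1 (0.96) were most like Inpp5d. For Fcgr1 they were Slc22a4, Wdtc1 (0.96 each) and Creg2 (0.95), and for Syk they were Riok3 (0.96), Lrrfip2 and Mir155hg (0.95 each). Fcgr4 was most like Hmga1b (0.94), Chmp4b (0.93) and Il7r (0.92), Plcg2 most like Stag2 (0.93), Sla and Ipmk (0.92 each), and Fcer1g most like Nup50, Ube2q1 (0.92 each) and Ech1 (0.91).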

How the data were processed

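The authors deposited raw read counts per gene symbol, as 1 table of 35050 rows by 12 libraries whose columns were identical to the 12 sample files. Per the labels' protocols, poly(A) RNA was captured with oligo(dT) and prepared with the NEBNext Ultra kit. The build was mm10, and the tools were HISAT2 version 2 and featureCounts 2.0.3, with fastp 0.23.4 and FastQC 0.12.1 for read quality, per the submitters' processing notes. Read length and counting options are not given in the sources used here. Rows without a symbol (102, with 0.0232% to 0.0328% of counts) were left out, and of 18 symbols with several rows 0 were members.

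Counts were tested with edgeR 4.0.16 in R 4.3.3 (TMM, filterByExpr with the 4 groups, robust glmQLFit with 1 mean per group over all 12 libraries, glmQLFTest), with Benjamini-Hochberg adjustment over 16546 genes and calls at adjusted p under 0.05. The common biological coefficient of variation was 0.267. The labels give 3 biological replicates per group without naming the animals behind them. On data simulated from these libraries with 200 changed genes, the R300 KO against blank KO test was run on 16232 genes. It called 23 of 100 genes changed 2-fold and 91 of 100 changed 4-fold. Every simulated gene had the common coefficient of variation, whereas SEs of members in this comparison ran from 0.12 (Fcer1g) to 0.27 (Fcgr1). These numbers therefore do not give the share that would be found for a single member. Single-library intervals and permutation tests were not used, since 3 against 3 libraries cannot give an exact two-sided p under 0.1.

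The members and lists were chosen with earlier results of these data known. Of the pathway lists, 2 genes are not reported here, and list counts are without them. Named genes are the 9 members, every called list gene, the 2 list genes with the lowest p in each averaged comparison, and the 3 genes most correlated with each member among tested genes averaging at least 100 counts. Lyz2, Ern1, Fcer1a, Ms4a2, the marker genes and the ratio of Lyn to Fgr are not covered by that rule; their choice came after their values were known. Libraries under 1 CPM of Xist formed the set without Xist. Same-numbered blank KO and blank WT libraries deviated together from their group means (r = 0.64, 0.66 and 0.74 over 10807 genes), so the numbers pair these groups, although the labels name no shared batch. The other groups compared with each other each had at least 1 same-numbered pair under 0.1 (R300 KO and blank KO 0.49, 0.058 and 0.75), while R300 KO and blank WT, which were not compared, gave 0.14, 0.12 and 0.72. Alternatives were DESeq2 1.42.0, other normalisations and filters, only the groups compared, a replicate block, the Xist sets, near-alike pairs summed and each library left out. The block within the blank groups was chosen after seeing the data.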

Additional observations from a re-analysis of the deposited data

How the results depend on the processing

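Of the 9 members, 1 was called with R300 over both genotypes, and this number was 2 with DESeq2 (Fcgr3 and Lyn), 3 with a term for the Xist sets (Fcgr3, Fcgr1 and Lyn), 2 in libraries with Xist alone (Fcgr3 and Fcgr1) and 0 with near-alike pairs summed. Leaving out single libraries gave 0 to 2. Of all 16546 genes, 603 were called in the main fit, 1222 with DESeq2 and 1492 with the Xist term. The number was 1004 of 16619 in libraries with Xist alone and 158 of 17087 with pairs summed. In R300 KO against blank KO, 0 members were called, against 1 (Fcgr3) with DESeq2, with the Xist term and in libraries with Xist alone, and 0 to 1 with single libraries left out. There 138 of 16546 genes were called, against 442 with DESeq2, 450 with the Xist term and 290 of 16619 in libraries with Xist alone. In the other 5 comparisons the number stayed at 0 throughout. The cause was not tested.

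With a replicate block over all 12 libraries, 1 member and 667 genes were called with R300 over both genotypes and 0 members in R300 KO against blank KO. The block changed no other call of a member, and within the blank libraries, which the numbers pair, it called 0 genes (677 at an unadjusted p under 0.05).

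Log2 values near 0 that were never called changed sign. For R300 against blank these were Syk (-0.032 in libraries with Xist, -0.025 to 0.18 with single libraries left out), Fcgr2b (-0.11 to 0.10), Fcer1g (-0.087 to 0.0043) and Inpp5d (-0.020 to 0.17). For KO against WT they were Fcer1g (-0.010 to 0.069) and Syk (-0.072 to 0.13), and for the interaction Lyn (-0.16 to 0.21), Fcgr1 (-0.46 to 0.11) and, with single libraries left out, Fcgr4 (-0.28 to 0.26), Syk (-0.28 to 0.11), Plcg2 (-0.13 to 0.15), Fcgr2b (-0.032 to 0.39) and Fcer1g (-0.14 to 0.0090). Single-genotype and single-treatment differences are not listed.

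Counts of all genes called in R300 KO against blank KO (138), R300 WT against blank WT (103) and over both genotypes (603) were 442, 363 and 1222 with DESeq2, 450, 347 and 1492 with the Xist term, 290, 242 and 1004 in libraries with Xist, and 35, 27 and 158 with pairs summed. With only the groups compared, 43 and 41 genes were called in KO and in WT. Single libraries left out gave 45 to 171, 32 to 135 and 308 to 852. Between KO and WT over both treatments, DESeq2 called 50, the Xist term 28, libraries with Xist alone 0 (853 at an unadjusted p under 0.05), near-alike pairs summed 0 (260), and single libraries left out 1 to 10 genes, against 1. With library totals only, calls over both genotypes split into 339 higher and 345 lower, against 402 and 201.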
